A study of Mus musculus and Rattus norvegicus with 6 samples.

Results

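The miR-15/16 family and the miR-103/miR-107 pair are microRNAs (miRNAs) whose seeds, the bases that pair with target messenger RNAs, differ by a shift of a single base. They were followed here in small RNA libraries from the retinas of wild-type Sprague Dawley rats and wild-type C57BL/6 mice, both 9 weeks old, with 3 libraries per species. No animal in either group was treated, the labels do not say that each library came from a separate animal, and strain changes together with species. The members were all rows named miR-15, miR-16, miR-195, miR-497, miR-103 or miR-107, with any letter, copy or arm. They made up 15 of 764 names in the rat table and 18 of 1915 names in the mouse table. After mouse miR-195a and miR-497a were joined to rat miR-195 and miR-497, 14 members stood in both tables.

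A miRNA hairpin is cut into a 5p and a 3p arm, and usually one of them is kept in the silencing complex while the other is degraded. The miR-15/16 family is known for holding back the cell cycle and survival, with cyclins and Bcl2 among its targets, and in the mouse heart miR-195 takes part in the exit of muscle cells from the cell cycle after birth. The miR-103/miR-107 pair is encoded in introns of the pantothenate kinase genes, whose enzymes start coenzyme A synthesis, and is known for targeting Dicer, the enzyme that cuts miRNA hairpins. The retina is the neural layer of the eye, made up largely of photoreceptors that no longer divide.

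The leading arms are shown because their first bases define the comparison. All 18 mouse member names had a mature sequence in RefSeq (GRCm38.p6), and rat names were matched to them by name only, since rat sequences were not used here. The prefix mmu marks mouse names and is left out from here on. Capitals mark the seed, bases 2 to 8 from the 5′ end.
mmu-miR-15a-5p: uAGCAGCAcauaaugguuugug
mmu-miR-15b-5p: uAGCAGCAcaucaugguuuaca
mmu-miR-16-5p: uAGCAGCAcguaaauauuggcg
mmu-miR-195a-5p: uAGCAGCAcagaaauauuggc
mmu-miR-497a-5p: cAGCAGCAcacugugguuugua
mmu-miR-103-3p: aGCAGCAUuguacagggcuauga
mmu-miR-107-3p: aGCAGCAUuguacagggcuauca
The first 5 carry the seed AGCAGCA and come from the 5p arm, whereas miR-103-3p and miR-107-3p carry GCAGCAU and come from the 3p arm. Sites that pair with these seeds read TGCTGCT and ATGCTGC in DNA letters, so they share the run TGCTGC of 6 bases. Between miR-103-3p and miR-107-3p there was 1 substitution, G22C, counted from the 5′ end of miR-103-3p. Over the 21 bases that miR-16-5p and miR-195a-5p share, 2 differed, and miR-15a-5p and miR-15b-5p differed at 4 of 22. How reads matching several names were divided is not given in the sources used here, so counts of miR-103-3p against miR-107-3p in particular depend on a base near the 3′ end, where miRNA reads often vary.

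In mouse, miR-16-5p is made from 2 hairpins with the same mature sequence, so its count cannot be divided between the loci. Mir15a and Mir16-1 lie on chromosome 14 on the minus strand with their 5p arms starting 139 bases apart, within the long noncoding gene Dleu2. Mir15b and Mir16-2 lie on chromosome 3 on the plus strand, 143 bases apart, within an intron of Smc4, which encodes a condensin subunit. Mir497 and Mir195a lie on chromosome 11 on the plus strand, 332 bases apart, with no overlapping non-miRNA gene in GENCODE M21. Mature miR-103-3p is likewise made from 2 hairpins, Mir103-1 in an intron of Pank3 on chromosome 11 and Mir103-2 in an intron of Pank2 on chromosome 2, and miR-107-3p comes from an intron of Pank1 on chromosome 19. The hairpins below are shown because their 3p arms either tell the miR-16 loci apart or vary between libraries. Capitals mark the mature arms.
Mir16-1 (GRCm38.p6, chr14:61631880-61631972, minus strand): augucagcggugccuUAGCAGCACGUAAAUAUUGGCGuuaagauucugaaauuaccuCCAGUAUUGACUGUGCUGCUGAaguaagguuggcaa
Mir16-2 (GRCm38.p6, chr3:69009902-69009996, plus strand): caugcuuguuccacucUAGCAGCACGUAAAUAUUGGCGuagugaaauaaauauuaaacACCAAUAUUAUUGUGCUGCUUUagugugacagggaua
Mir195a (GRCm38.p6, chr11:70235042-70235135, plus strand): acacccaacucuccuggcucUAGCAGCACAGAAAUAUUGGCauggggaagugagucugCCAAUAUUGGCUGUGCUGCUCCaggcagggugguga
The 3p arms miR-16-1-3p and miR-16-2-3p differed at 10 of 22 bases, while miR-16-1-3p and miR-195a-3p differed at 4 of 22.

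Depth was 24169628 to 28198305 counts in the rat libraries (r1, r2 and r4) and 27843590 to 30514632 in the mouse libraries (m1, m3 and m4). Of the rat libraries, r1 stood apart from r2 and r4 in its profile. The lens and cornea miRNA miR-184 was at 9369 CPM of all counts (reads scaled to library size) in r1, against 1761 in r2 and 1119 in r4. The other lens, cornea and epithelium markers followed, miR-205, miR-200b-3p and miR-200c-3p, were instead lowest in r1 of the rat libraries on this scale. In scaled CPM, the scale used for the levels, r1 stood to the mean of r2 and r4 as 0.385 for miR-15a-5p and as 3.71 for miR-195-3p. These were the extremes among the members tested below, and miR-103-3p stood at 0.953. Over all miRNAs tested, r1 was below both r2 and r4 for 44.4%. Results that rest on r1 are therefore given with and without it. The retina label was met by its markers: miR-183-5p, miR-182, miR-96-5p, miR-124-3p and miR-9 together held 450453 to 539515 CPM of all counts in the rat libraries and 507696 to 533921 in the mouse libraries.

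Members held 0.503% ± 0.166 of all counts in rat and 0.497% ± 0.0151 in mouse (SD, n = 3 each). The rat mean averages r1, at 0.311%, which lay below every mouse library, with r2 and r4, at 0.611% and 0.586%, which lay above every one. Most of the member counts were miR-103-3p. That single arm made up 88.0% ± 2.59 of the member counts in rat and 84.6% ± 0.508 in mouse (SD, n = 3 each). It was rank 32 of the rat names and rank 30 of the mouse names by its mean share of counts, while miR-16-5p was rank 94 in rat and rank 86 in mouse. A mature sequence, and so a seed, was at hand for 493 of 764 rat names (through the mouse name) and for 1623 of 1915 mouse names. Summed over these, AGCAGCA miRNAs reached 429 ± 214 CPM of all counts in rat and 598 ± 35.3 in mouse (SD, n = 3 each). Library r1 was low at 182 CPM, against 563 and 542 in r2 and r4 and 557 to 619 in mouse, so the species overlapped. The miRNAs with GCAGCAU reached 4580 ± 1456 CPM in rat and 4337 ± 122 in mouse (SD, n = 3 each), with r1 at 2904, below every mouse library, and r2 and r4 at 5533 and 5303, above every one. Outside the members, the names with the first seed among these were miR-322-5p, at 0.621 to 2.61 CPM in rat and 0.970 to 1.97 CPM in mouse, and mouse miR-6342, miR-6353 and miR-6419, at 0 counts in the mouse libraries. Among the names with a sequence, none outside the members carried the seed of miR-103/miR-107.

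From here levels are scaled CPM, computed over the names shared by the tables after TMM scaling for library composition. By the mean of 3 libraries, the order of the 9 members abundant enough to test was the same in both species: miR-103-3p, miR-16-5p, miR-107-3p, miR-195-5p, miR-15b-5p, miR-195-3p, miR-15a-5p, miR-497-5p and miR-15b-3p. In rat the ranges of neighbours in this order overlapped between miR-16-5p and miR-107-3p, between miR-15b-5p and miR-195-3p and between miR-195-3p and miR-15a-5p, though miR-16-5p was above miR-107-3p within each rat library. In mouse no neighbours overlapped. The place of miR-195-3p above miR-15a-5p in rat rests on r1. In r2 and r4 miR-195-3p was below miR-15a-5p, the reverse of the mouse libraries. Levels of different miRNAs in a library also depend on how well each sequence is ligated and amplified, which was not measured.

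**Figure D1:**
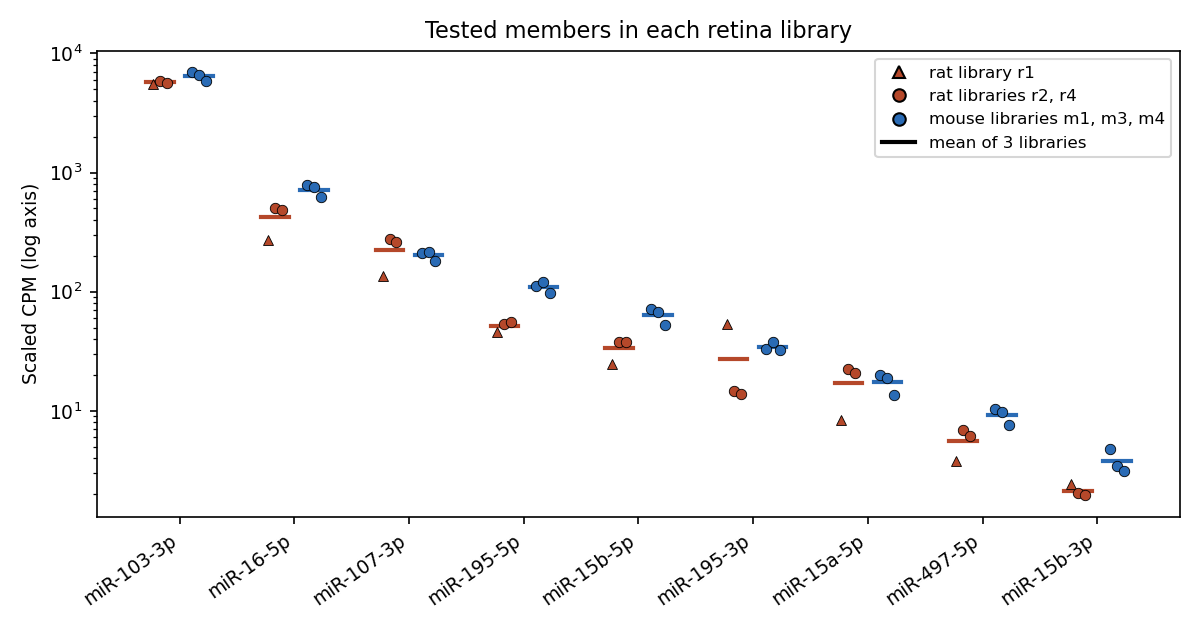
Scaled CPM (log axis) of the 9 tested members, with rat libraries to the left of mouse libraries, each point a library and each bar the mean of 3. The triangle is rat library r1, which lay below r2 and r4 for 7 of the members and above them for miR-195-3p and miR-15b-3p. Over all miRNAs tested, r1 lay below both for 44.4%.

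The remaining 5 members joined between the tables were barely seen. The miR-103-1-5p, miR-103-2-5p and miR-107-5p arms, miR-15a-3p and miR-497-3p had 0 to 4 counts in every library. A count of 0 allows up to 3 counts, 0.0983 to 0.124 CPM of all counts depending on the library, which covers counting error only. They did not pass the low-count filter and were not tested.

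In scaled CPM, rat retina held less miR-16-5p, miR-195-5p and miR-15b, the last in both arms. The 5 members not called were miR-15a-5p and miR-497-5p, with the seed of miR-16-5p, both members with the GCAGCAU seed, and miR-195-3p. Of 9 tested members, 4 were called lower in rat (adjusted p below 0.05, edgeR quasi-likelihood test, adjusted over all miRNAs tested), 0 were called higher and 5 were not called. No member was higher at an unadjusted p under 0.05 either (0), and DESeq2 also gave 0 higher and 5 lower. Scaling by library totals alone, taken over the names shared by the tables, gave 0 lower and 0 higher. The fit without r1 gave 6 lower and 2 higher. That fit also called 302 of all 416 miRNAs it tested, 143 lower and 159 higher. With all 6 libraries, 49.1% of the 401 miRNAs tested were called, with 23.9% lower and 25.2% higher in rat. The median log2 difference was -0.71 over the 9 tested members and 0.08 over all tested. The libraries of the species did not overlap for 5 of the 9 members, each lower in rat, against 60.1% of all tested in either direction and 30.7% with rat below mouse. In total RNA from a tissue, fewer cells of a type and less miRNA per cell cannot be told apart.

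The miR-15a partner of the Mir15a/Mir16-1 locus was at 8.31, 22.6 and 20.6 scaled CPM in rat libraries r1, r2 and r4, against 19.99, 18.8 and 13.6 in mouse libraries m1, m3 and m4. The species overlapped, with r1 the lowest of the 6 libraries and r2 and r4 the highest. The log2 difference of miR-15a-5p was -0.02 ± 0.35 (SE; adjusted p = 0.971), with a 95% interval of -0.80 to 0.77. Without r1 it was 0.32 ± 0.13 and was called higher, by a narrow margin (adjusted p = 0.0496).

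For miR-16-5p, the common product of the Mir15a/Mir16-1 and Mir15b/Mir16-2 loci, the rat libraries held 270, 505 and 486 scaled CPM and the mouse libraries 780, 753 and 623. All rat values were below all mouse values on this scale, and r1 was the lowest. In CPM of all counts the species overlapped, at 138, 452 and 433 in rat and 483, 479 and 436 in mouse. The mean was 420 ± 131 in rat and 718 ± 83.7 in mouse (SD, n = 3 each), and the log2 difference was -0.77 ± 0.24 (SE; adjusted p = 0.0258). The call of miR-16-5p needed all 3 mouse libraries, with adjusted p of 0.0940 without m1, 0.0681 without m3 and 0.0717 without m4. Without r1 the log2 difference was -0.52 ± 0.07 (adjusted p = 9.13e-05).

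The miR-15b partner of the Mir15b/Mir16-2 locus had 24.9, 38.1 and 37.8 scaled CPM of its 5p arm in the rat libraries, against 71.7, 67.3 and 52.2 in the mouse libraries. The species were apart, and miR-15b-5p fell in rat by 0.92 ± 0.22 on the log2 scale (SE; adjusted p = 0.00744). Its passenger arm miR-15b-3p, the one degraded in most copies, was at 2.42, 2.03 and 1.95 scaled CPM in rat and at 4.81, 3.45 and 3.14 in mouse. It fell by 0.84 ± 0.26 (adjusted p = 0.0238), but rests on 30 to 83 counts a library, and the call was lost without r2 (adjusted p = 0.0728), r4 (0.0877) or m1 (0.0768).

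With all 6 libraries the largest difference among the tested members was in miR-195-5p, the leading arm of the Mir195a hairpin. It held 46.3, 53.3 and 55.2 scaled CPM in the rat libraries and 112, 121 and 97.6 in the mouse libraries. On this scale r1 was close to r2 and r4, and the highest rat library was well below the lowest mouse library. In CPM of all counts miR-195-5p was at 23.7 in r1, 47.7 in r2 and 49.3 in r4, against 68.3 to 76.8 in mouse. The log2 difference was -1.09 ± 0.16 (SE; adjusted p = 0.000603; 95% interval -1.45 to -0.73), and when 1 library was left out it ran from -1.14 to -1.01 and stayed called. Its cluster partner miR-497-5p was at 3.79, 6.85 and 6.16 scaled CPM in rat and at 10.4, 9.83 and 7.55 in mouse. The species did not overlap, yet the log2 difference of -0.71 ± 0.26 (adjusted p = 0.05002) lay just outside the threshold. DESeq2 (adjusted p = 0.0177) and the fit without r1 (adjusted p = 0.0111; log2 difference -0.50) called miR-497-5p lower. Library totals alone gave -0.31 (adjusted p = 0.537), and leaving out any library other than r1 gave an adjusted p of 0.0541 to 0.151.

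The 3p arm miR-195-3p was the member on which the libraries of a species differed most. In rat it stood at 53.3 scaled CPM in r1 and at 14.8 and 13.9 in r2 and r4, against 33.0, 38.1 and 32.3 in the mouse libraries. So r1 was above every mouse library while r2 and r4 were below every one. With all 6 libraries miR-195-3p was not called (log2 difference -0.35 ± 0.47, adjusted p = 0.569). Without r1 it was called lower, at -1.26 ± 0.11 (adjusted p = 1.49e-06).

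With the other seed, miR-103-3p was nearly level between species. It was at 5526, 5907 and 5684 scaled CPM in the rat libraries and at 6997, 6569 and 5853 in the mouse libraries. The ranges overlapped, and r1 did not stand out on this scale. In CPM of all counts miR-103-3p was at 2834 in r1, below every mouse library, and at 5286 and 5068 in r2 and r4, above every one. The log2 difference of miR-103-3p was -0.18 ± 0.15 (SE; adjusted p = 0.354), with a 95% interval of -0.53 to 0.16. A value of 0.17 was found with library totals alone, so its direction is not settled by these libraries.

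The sequence-near miR-107-3p had 137, 276 and 263 scaled CPM in the rat libraries and 209, 214 and 183 in the mouse libraries. Again r1 was the lowest of the 6 and r2 and r4 the highest, as for miR-15a-5p. The log2 difference was 0.16 ± 0.25 (SE; adjusted p = 0.637; 95% interval -0.41 to 0.73). Without r1, miR-107-3p was called higher in rat at 0.43 ± 0.07 (adjusted p = 0.000186). That fit called 6 members lower and 2 higher of 9, and 302 of all 416 miRNAs tested.

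**Figure D2:**
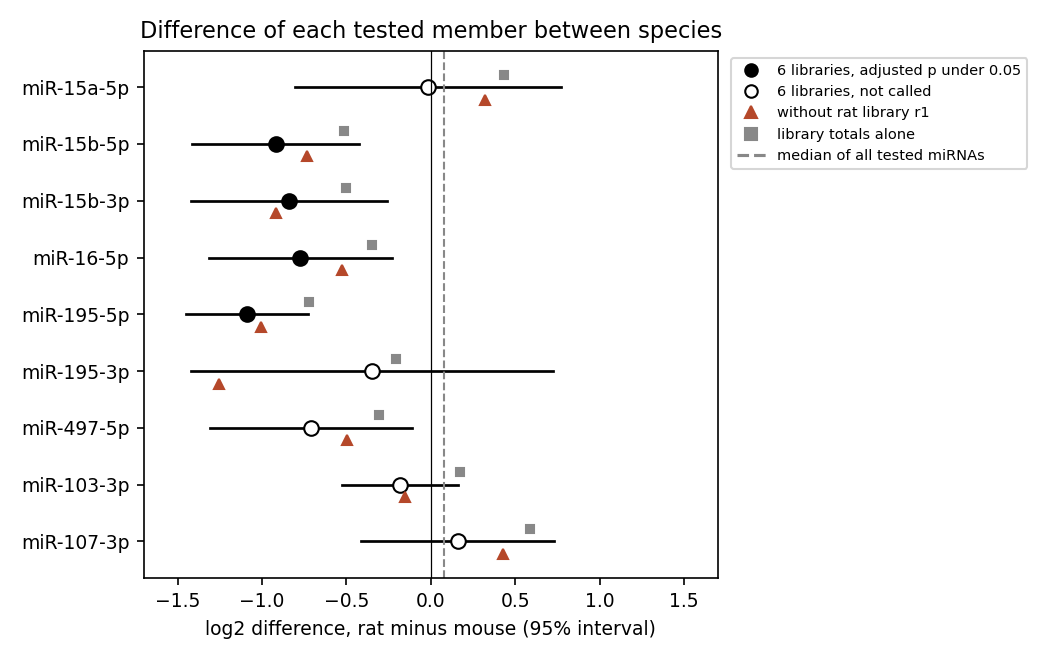
Log2 difference (rat minus mouse, horizontal axis) of each tested member with its 95% interval, filled where called. Triangles give the fit without rat library r1 and squares the scaling by library totals alone. The filled points are miR-15b-5p, miR-15b-3p, miR-16-5p and miR-195-5p, all left of 0 under each of these 3 settings.

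The calls depend on the scaling. Library totals here are the counts over the names shared by the tables, 15395289 to 22443335 a library, not the depth over all names. With library totals alone, which moves the median of all tested miRNAs up by 0.34 on the log2 scale, 0 members were called in either direction by edgeR, and 1 was lower at an unadjusted p under 0.05. That member was miR-195-5p (log2 difference -0.72, adjusted p = 0.0714). The called members stayed below 0 there, at -0.35 for miR-16-5p, -0.52 for miR-15b-5p and -0.51 for miR-15b-3p. Over all tested miRNAs 74.7% of the called were higher in rat under that scaling, against 51.3% with TMM.

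Ratios taken inside a library do not depend on scaling, and compare the pairs with each other. The summed leading arms of miR-15a, miR-15b, miR-16, miR-195 and miR-497 stood to the sum of miR-103-3p and miR-107-3p as 0.0624, 0.101 and 0.102 in the rat libraries and as 0.138, 0.143 and 0.132 in the mouse libraries. Every rat ratio was below every mouse ratio, and r1 was the lowest. On the log2 scale the mean was -3.53 ± 0.41 in rat and -2.86 ± 0.06 in mouse (SD, n = 3 each), a difference of -0.67 (exact two-sided permutation test over libraries, p = 0.10). With 3 libraries against 3 this is the smallest p the test allows, so it cannot pass 0.05. Without r1 the difference was -0.44.

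The next ratios set miR-15a-5p and miR-15b-5p against miR-16-5p, whose count pools both of its loci, so they are not ratios within a locus. The ratio of miR-15a-5p to miR-16-5p was 0.0309, 0.0447 and 0.0424 in rat and 0.0257, 0.0251 and 0.0219 in mouse, each rat library above each mouse library. The log2 difference was 0.69 (exact permutation p = 0.10, adjusted p = 0.25 over 5 ratios). By contrast, the ratio of miR-15b-5p to miR-16-5p was 0.0925, 0.0755 and 0.0779 in rat and 0.0920, 0.0894 and 0.0838 in mouse. These overlapped through r1, which was above every mouse library, while r2 and r4 were below every one. The log2 difference was -0.11 (exact permutation p = 0.40, adjusted p = 0.40), and -0.20 without r1. Set directly against each other, miR-15b-5p exceeded miR-15a-5p by 2.99, 1.69 and 1.84 times in rat and by 3.58, 3.57 and 3.82 times in mouse. The species were apart, with a log2 difference of -0.80 (exact permutation p = 0.10, adjusted p = 0.25) and of -1.05 without r1.

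The other pairs overlapped between species with all 6 libraries. The ratio of miR-195-5p to miR-497-5p was 12.1, 7.76 and 8.94 in the rat libraries and 10.7, 12.2 and 12.9 in the mouse libraries, a log2 difference of -0.34 (exact permutation p = 0.20, adjusted p = 0.33). Only r1 lay within the mouse range, with r2 and r4 below every mouse library, and without r1 this difference was -0.51. The ratio of miR-103-3p to miR-107-3p was 40.4, 21.4 and 21.6 in rat and 33.4, 30.6 and 32.0 in mouse. Here r1 was above and r2 and r4 below every mouse library, so the log2 difference of -0.27 (exact permutation p = 0.40, adjusted p = 0.40) became -0.58 without r1. As a share, miR-107-3p was 2.41% of the miR-103-3p and miR-107-3p counts in r1 (95% Wilson interval 2.30 to 2.53), 4.47% (4.36 to 4.58) in r2 and 4.42% (4.32 to 4.53) in r4. In the mouse libraries it was between 2.91% and 3.16%.

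**Figure D3:**
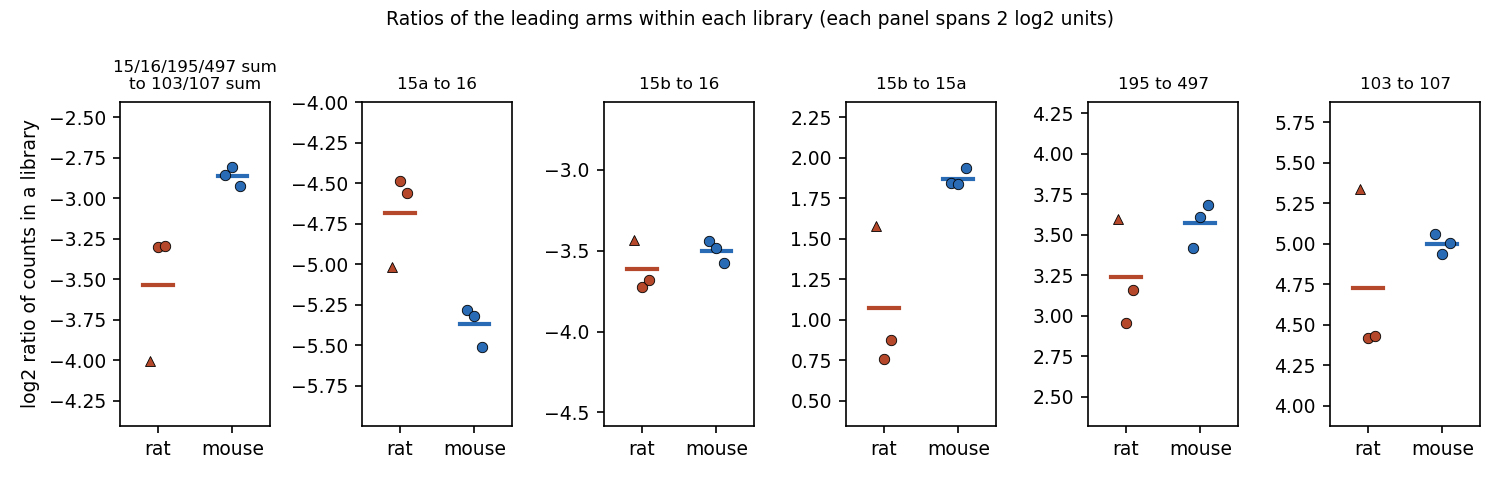
Log2 ratio of counts between leading arms within each library, rat left and mouse right, with a bar at the mean and a triangle for r1. Rat and mouse points do not overlap for the family ratio, miR-15a to miR-16 and miR-15b to miR-15a. They overlap for the other 3, in each through r1.

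Arm usage is the balance of 5p and 3p counts from a hairpin. Of 4 member hairpins that could be tested by name (miR-15a, miR-15b, miR-195 and miR-107), 0 were called by limma and 0 had an unadjusted p under 0.05, while 24.1% of all 170 hairpins tested were called. For miR-195 the 3p arm held 53.5% of the hairpin's counts in r1 (95% Wilson interval 50.7 to 56.3), against 21.7% (19.8 to 23.9) in r2 and 20.1% (18.3 to 22.1) in r4. In the mouse libraries it held 22.8%, 24.04% and 24.9%. So r1 was the only library of the 6 in which miR-195-3p outnumbered miR-195-5p. Of the 170 hairpins, 2 had a leading arm in r1 that differed from that of the other 5 libraries, miR-195 and miR-216a (chosen after its values were seen). The log2 difference of the 5p to 3p ratio of miR-195 was -0.46 ± 0.60 (SE; limma adjusted p = 0.618), and 0.25 ± 0.12 without r1 (adjusted p = 0.164). For miR-15b the 3p share was 6.27% ± 2.24 in rat and 5.62% ± 0.708 in mouse (SD, n = 3 each), a log2 difference of the arm ratio of -0.13 ± 0.31 (adjusted p = 0.812). For miR-107 and miR-15a the minor arm was at 0 to 3 counts, and their ratios are not interpretable.

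The 3p arms of miR-16 were named differently in the tables. The rat table lists a single miR-16-3p, with 6, 23 and 26 counts, and does not say which hairpin it stands for. The mouse table lists miR-16-1-3p, with 321, 352 and 274 counts, and miR-16-2-3p, with 16, 16 and 19 counts. In mouse, miR-16-1-3p made up 94.8% ± 1.14 (SD, n = 3) of the miR-16 3p counts, although miR-15a-5p, from the same locus as miR-16-1, was at a lower level than miR-15b-5p in every mouse library (scaled CPM). The named 3p arms made up 0.197% ± 0.0170 of miR-16 counts in rat and 2.41% ± 0.0695 in mouse (SD, n = 3 each), and a difference in annotation cannot be told apart from a difference in arm usage here. Mouse miR-497b had 23 to 31 counts. It lies on the strand opposite Mir497, its seed is ACCACAG, and it is no seed relative in spite of its number. Mouse miR-195b, on chromosome 2, has the AGCAGCA seed and had 1 count in each library.

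**Figure D4:**
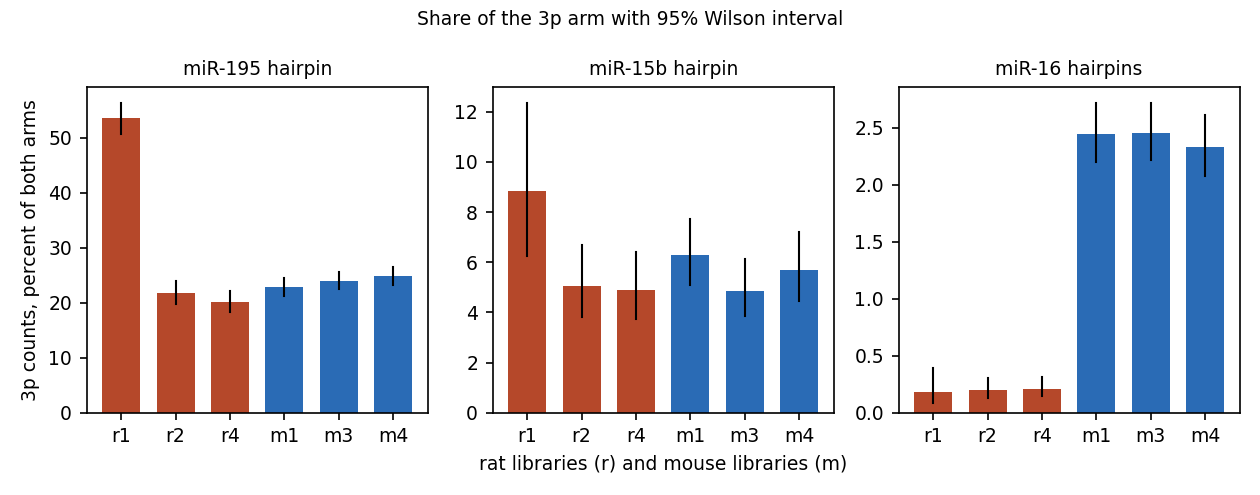
Share of 3p counts in both arms (percent, bars from 0) for the miR-195, miR-15b and miR-16 hairpins in each library, with 95% Wilson intervals that cover counting error only. Library r1 reached 53.5% for miR-195, and for miR-16 the rat table names a single 3p arm while the mouse table names both.

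Levels most like those of miR-16-5p over the 6 libraries were found by the root mean square difference of log2 scaled CPM. Each miRNA was centred on its own mean. The search covered 155 miRNAs outside the members with a mean of at least 100 scaled CPM in either species. The closest were miR-872-5p (0.13), miR-181b-5p (0.19), miR-125b-5p (0.20), miR-708-5p (0.21) and miR-27b-3p (0.22). For miR-103-3p the closest were miR-26b-5p (0.05), miR-23b-3p (0.06), miR-300-3p (0.08), miR-22-3p (0.08) and miR-598-3p (0.09). This measure is smaller for a miRNA that varies little, so its sizes are not compared between miR-16-5p and miR-103-3p.

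Some markers of other cell types also differed in level between the species, in either direction. In CPM of all counts, the red blood cell list summed to 162 to 296 in the rat libraries (4 of 5 markers listed) and 200 to 215 in the mouse libraries (5 of 5). Within it, miR-451 was at 0.662 to 3.56 in rat and 9.12 to 11.6 in mouse. Most of the sum was miR-486, at 161 to 291 in rat under a single name and at 91.8 to 100.4 (miR-486a-5p) and 95.7 to 104 (miR-486b-5p) in mouse. Muscle markers (3 of 3) summed to 44.3 to 66.9 in rat and 642 to 883 in mouse. The mouse sum was mostly miR-1, at 14.1 to 37.7 in rat and 622 to 858 in mouse, while miR-206-3p was at 27.1 to 32.6 in rat and 15.9 to 19.3 in mouse. Vessel and mesenchyme markers (5 of 5) summed to 7567 to 8011 in rat and 4271 to 5104 in mouse. Most of this was miR-143-3p, at 5272 to 6466 in rat and 2607 to 3086 in mouse. Within the same list miR-199a-3p was at 24.4 to 63.3 in rat and 81.8 to 98.2 in mouse, and miR-126a-3p overlapped, at 1307 to 2174 in rat and 1552 to 1892 in mouse. Retinal pigment epithelium markers (2 of 2) summed to 24513 to 30822 in rat and 13778 to 16134 in mouse. Leukocyte and microglia markers (4 of 4) overlapped, at 40.1 to 74.6 in rat and 47.3 to 54.5 in mouse. Lens, cornea and epithelium markers (4 of 4) reached 1189 to 9409 in rat, highest in r1, and 323 to 1267 in mouse. Most of this sum was miR-184, at 9369 in r1. In the same list miR-205 (4.72), miR-200b-3p (27.6) and miR-200c-3p (7.37) were lowest in r1 of the rat libraries. By scaled CPM, miR-200b-3p (53.9) and miR-200c-3p (14.4) were instead highest in r1 of these. No marker found in a table was at 0 in all 3 libraries of that species. The part of these cells in the differences of miR-195-5p, miR-16-5p and miR-15b-5p was not tested.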

How the data were processed

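For each species a table of raw counts by mature miRNA was deposited by the authors, with 3 count columns. Retinal RNA was isolated with a miRNeasy kit and sequenced on a HiSeq-2500, per the labels' protocols, whose wording mentions rat eyes for mouse samples too. Trimming, alignment, annotation release and the handling of reads that fit several miRNAs: not given in the sources used here. Columns name the species but not a numbered sample, so each was assigned to its species. Depth was 24169628 to 30514632 counts a library. Separate animals are not stated for the libraries of a species, so p-values measure only library spread, part of which may be technical.

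Names were joined without the species prefix (542 exact, 546 with the miR-195 and miR-497 pairs). R 4.3.3 with edgeR 4.0.16 served for the test of counts (TMM, filterByExpr, quasi-likelihood F test, Benjamini-Hochberg adjustment over 401 miRNAs); standard errors are the log2 difference over the root of F. Arm usage was tested with limma 3.58.1 on log2((5p + 0.5)/(3p + 0.5)) for hairpins with at least 50 counts in every library. Ratios used a pseudocount of 0.5 and an exact two-sided permutation test (SciPy 1.17.1). DESeq2 1.42.0 was an alternative. The edgeR and limma tests were tried on simulated data. No simulated library was made to stand apart as r1 does, and the outcome is not reported here. Members given in full have at least 100 counts in every library of a species; miR-15b-3p falls below this and was added after its values were seen. Others with either seed, the 5 closest profiles and all marker lists are also named. The members and lists were chosen with earlier results of these data known. Strain and any batch of a table cannot be told apart from species.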

Additional observations from a re-analysis of the deposited data

How the results depend on the processing

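The numbers of members called lower ran from 2 (without m1) to 6 (without r1) when 1 library was left out, and of members called higher from 0 to 2 (without r1), against 4 and 0. Of all miRNAs tested, 156 of 412 were called without m1 and 302 of 416 without r1. Library totals alone called 0 lower. In another fit miR-103-3p and miR-107-3p were summed to a single row, as were the 5p arms of miR-15a, miR-15b, miR-16 and miR-195. It called 2 lower of 5 rows tested, where single rows called before were merged. These were the summed 5p arms (log2 difference -0.79, edgeR adjusted p = 0.0198) and miR-15b-3p. The log2 difference of miR-15a-5p changed sign with library totals (0.43) and relative log expression factors (0.00299), and ran from -0.20 to 0.32 when 1 library was left out; that of miR-103-3p changed sign with library totals (0.17). The cause was not tested. The 6 ratios kept their direction under every alternative run, with leave-one-out ranges of -0.79 to -0.44 for the family ratio, 0.58 to 0.85 for miR-15a to miR-16, -0.20 to -0.06 for miR-15b to miR-16, -1.05 to -0.64 for miR-15b to miR-15a, -0.51 to -0.19 for miR-195 to miR-497 and -0.58 to -0.12 for miR-103 to miR-107. Arm ratios of miR-15a (-0.00823 with a pseudocount of 5; -0.0166 to 1.20), miR-15b (-0.29 to 0.17) and miR-195 (-0.85 to 0.25) changed sign, the ranges being leave-one-out; none was called. No paired analysis was possible because the labels do not tie any rat sample to a mouse sample. The count columns also carry no replicate number of the labels, so that number could not be used as a block. Low counts limit miR-15b-3p, miR-497-5p and the minor arms other than miR-195-3p and mouse miR-16-1-3p.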
